A study of Mus musculus with 12 samples.

Results

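The interferon response and nucleic acid sensing genes described here are 39 genes given by name, of 24480 genes in the expression tables, and all 39 were matched by symbol. They comprise 7 sensors of foreign nucleic acid and their adaptors, 3 genes of the type I interferon receptor and its kinase, 5 transcription factors, 20 antiviral effectors and modifiers, and 4 genes of antigen presentation. RNA was sequenced from mouse embryonic stem cells (ESCs), kept undifferentiated, after transient transfection with a lipid reagent; the cells were of the E14Tg2a line. In the first experiment YAP was knocked down with Stealth siRNAs (YAP KD) or the cells were given scrambled duplexes (CTR KD), and per the study RNA was taken 48 h later. In the second they received a pCAG plasmid with the wild-type mouse YAP coding sequence (YAP OE) or, as control (CTR OE), a plasmid described as encoding GFP in the labels and as an empty vector in the study. The CAG promoter of this plasmid is a strong ubiquitous promoter, and the harvest time of this experiment was not given in the sources used here. Each of the 4 groups has 3 libraries, which the study describes as independent samples. All groups went through transfection with a nucleic acid, and no untransfected group was analysed here, so delivery itself has no baseline. Each value is an average over the transfected culture, in which fewer cells expressing a gene and less RNA per cell cannot be told apart.

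Type I interferon signalling has a sensing arm and a response arm. Cytosolic helicases such as RIG-I (Ddx58) and MDA5 (Ifih1) recognise viral RNA and signal through MAVS, TLR3 recognises double-stranded RNA in endosomes, and STING (Tmem173) acts downstream of DNA sensing, all leading through IRF3 and IRF7 to interferon genes. Secreted interferon binds the IFNAR1 and IFNAR2 receptor, TYK2 and JAK1 signal to STAT2, and STAT2 acts with IRF9 in the complex ISGF3, which binds the interferon-stimulated response element (ISRE) of interferon-stimulated genes. A different element, the gamma-activated site (GAS), also lies before many interferon-responsive genes. Pluripotent stem cells are known to respond weakly to viral RNA and to interferon while holding some antiviral genes, such as the Ifitm genes, at a constitutive level.

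The DNA element that ISGF3 recognises was looked up first, in the 250 bases before each start site, because it separates members by a feature that is independent of their measured level. RefSeq promoters (GRCm38.p6) were matched for 32 of the 39 genes. None was matched for Oas1b, Usp18, Dhx58, Zbp1, Tmem173, Parp9 and Parp14. The core of the ISRE, GAAA and again GAAA with any 2 bases between them, was found on either strand before 8 of these 32 genes (25.0%), namely B2m, Bst2, Ifit1, Ifit3, Ifitm2, Isg15, Oas1a and Stat2, and in 2.977% of all 32851 promoters of the table. The palindrome TTCNNNGAA of the GAS was found before 7 genes (21.88%, against 7.02% of all promoters), of which Bst2 and Oas1a held both. Promoters of 3 genes that bear the ISRE core and differ in level, and a bidirectional region without it, are shown up to the base before the start site, 5′ to 3′ on the strand of the named gene, with matches to the ISRE core in capitals (overlapping matches run together).
Isg15, near silent in these cells, chr4:156200819-156200938, minus strand: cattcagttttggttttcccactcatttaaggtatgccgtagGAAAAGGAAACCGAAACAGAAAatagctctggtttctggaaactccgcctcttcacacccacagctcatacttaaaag
Oas1a, expressed and changed in YAP KD, chr5:120907526-120907645, minus strand: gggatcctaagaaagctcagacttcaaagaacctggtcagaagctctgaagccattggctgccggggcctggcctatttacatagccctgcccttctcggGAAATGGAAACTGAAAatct
Bst2, expressed and different between the control groups, chr8:71537473-71537622, minus strand: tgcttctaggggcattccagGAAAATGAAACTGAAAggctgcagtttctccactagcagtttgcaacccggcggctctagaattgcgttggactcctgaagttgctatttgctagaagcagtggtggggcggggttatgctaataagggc
Tap1, lower in YAP KD, the whole stretch between the divergent starts of Psmb9 and Tap1, chr17:34187331-34187555, plus strand: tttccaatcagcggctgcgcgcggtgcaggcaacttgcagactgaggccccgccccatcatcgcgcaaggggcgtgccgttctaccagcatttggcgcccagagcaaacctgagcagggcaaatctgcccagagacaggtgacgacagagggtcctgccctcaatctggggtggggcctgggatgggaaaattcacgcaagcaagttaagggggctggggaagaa
The matches of Isg15 began 78, 72 and 66 bases before the start, those of Oas1a 20 and 14 bases before it (another annotated start of this gene, at 120907544, lies inside the window shown) and those of Bst2 130 and 124 bases before it. No match to the ISRE core was found in the stretch shared by Psmb9 and Tap1, which is 225 bases long. Of the 8 genes with the core, 3 were near silent in these ESCs (Ifit1, Ifit3 and Isg15, as defined below) and 5 were expressed, and of the 24 genes without it 6 were near silent. This split leaves out the genes with no matched promoter, which were all near silent except Parp9 and Parp14. A match is a stretch of letters and was not tested for binding, and no match says only that these letters are not in this window.

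Depth ranged from 4.29e+07 to 5.72e+07 expected counts per library, with 17611 to 18163 genes detected by 1 count or more. Levels are given as CPM, read counts relative to library size, after trimmed-mean (TMM) scaling over all 12 libraries, and 1 CPM stood for between 42.14 and 56.13 counts. All 10 ESC markers of a fixed list, Pou5f1, Sox2 and Nanog among them, were at 1 CPM or more in every library, with a summed level of 5726 to 6254 CPM. Yap1 fell from 125.4 ± 9.40 CPM in CTR KD to 56.7 ± 1.80 CPM in YAP KD (mean ± SD, n = 3; log2 fold change, log2FC, -1.14, SE 0.0568, edgeR adjusted p = 4.357492e-05). In YAP OE, where plasmid and endogenous transcripts count together, it stood at 258.9 ± 16.6 CPM against 132.6 ± 2.02 CPM in CTR OE (log2FC 0.97, SE 0.0470, edgeR adjusted p = 3.471368e-08). The p-values throughout set a difference between groups against the spread between these libraries.

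The first question was which of the 39 genes are silent in ESCs. No gene was undetected in all 12 libraries, but 14 of the 39 (35.9%) stayed under 1 CPM in every library and are called near silent here. Of all 24480 genes, 47.31% did so. The near-silent genes were the effectors Isg15, Ifit1, Ifit3, Oasl1, Oasl2, Oas1b and Usp18, the transcription factor Irf7, the sensors and adaptors Ifih1, Dhx58, Tlr3, Zbp1 and Tmem173, and the immunoproteasome subunit Psmb9. At the other end, 23 genes (58.97%, against 48.66% of all genes) were at 1 CPM or more in every library. Of these, 16 (41.03% of the members, against 33.35% of all genes) were at 10 CPM or more. Ifit2 and Psmb8 lay between these classes, crossing 1 CPM from library to library. The limit takes no account of gene length, and the effective length of Psmb9 is only 629.6 bases. Per kilobase of effective length its median was 0.964 CPM, above those of Psmb8 (0.668) and Ifit2 (0.315) and above 52.17% of all genes. Its place among the near-silent genes therefore depends on the measure.

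Effectors made up 7 of the 14 near-silent genes. Ifit3, which binds viral RNA together with IFIT1, had 1, 0 and 0 counts in CTR KD, 1, 1 and 0 in YAP KD, 0, 0 and 1 in CTR OE and 0, 0 and 2 in YAP OE. No group stood apart, and each 0 allows up to 3 counts in that library, which is 0.0534 to 0.0712 CPM across the libraries. Usp18, the protease that removes ISG15 from proteins and restrains IFNAR2 signalling, had 0 counts in all 3 CTR KD libraries and between 0 and 4 elsewhere. Isg15, the ubiquitin-like modifier that is among the most strongly interferon-induced genes of most cells, had 3, 1 and 4 counts in CTR KD, 4, 15 and 5 in YAP KD, 8, 8 and 5 in CTR OE and 6, 2 and 8 in YAP OE. The highest value came from YAP KD replicate 2 alone. The other 2 YAP KD libraries, at 0.0949 and 0.0933 CPM, lay just above the highest CTR KD library (0.0830 CPM) and within the range of the overexpression experiment. At so few counts no difference is read from this. Ifit1, which binds RNA without a self-type cap, ranged from 3 to 23 counts, with 13 to 23 in YAP KD and 8 to 19 in CTR KD.

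The sensing arm was uneven. The RIG-I gene Ddx58 was at 39.51 ± 0.578 CPM in CTR OE and 42.64 ± 1.49 CPM in CTR KD, and the adaptor gene Mavs at 21.41 ± 0.143 and 23.02 ± 0.797 CPM. By contrast the MDA5 gene Ifih1 had between 1 and 9 counts in any library, the gene of the related helicase LGP2 (Dhx58) between 15 and 37 counts, Tlr3 between 6 and 21 and Tmem173 between 2 and 14. Per kilobase of effective length, which allows genes to be compared, the median level over the 12 libraries was 8.52 CPM per kilobase for Ddx58, 8.05 for Mavs, 0.226 for Dhx58, 0.0492 for Tlr3, 0.0408 for Tmem173 and 0.0201 for Ifih1. The lowest Ddx58 library, at 7.41 CPM per kilobase, was above the highest library of each of the 4 low genes. Ddx58 and Mavs did not separate from each other, with ranges of 7.41 to 10.1 and 7.11 to 8.85 CPM per kilobase.

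The most abundant members by this measure were the 3 Ifitm genes, which encode membrane proteins that hinder fusion of enveloped viruses. Their median levels were 606.6 CPM per kilobase for Ifitm1, 364.3 for Ifitm2 and 194.8 for Ifitm3, and their ranges over the 12 libraries did not overlap. At least 98.22% of all genes lay below each of them. Expected counts were not whole in 6 libraries for Ifitm1, 1 for Ifitm2 and 6 for Ifitm3, so some of their reads were shared with other genes. Bst2, the gene of the tethering factor tetherin, followed at 45.8 CPM per kilobase, then Trim25, the ubiquitin ligase that acts on RIG-I, at 17.5, B2m, the light chain of MHC class I, at 14.3, and the transcription factor Irf1 at 12.5. The ranges of Trim25 and B2m overlapped, as did those of B2m and Irf1. The receptor genes Ifnar1 and Ifnar2 and the kinase gene Tyk2 were all expressed, with medians of 6.52, 4.52 and 9.21 CPM per kilobase. Of the transcription factors, Irf3 (9.74), Irf9 (6.88) and Stat2 (3.54) were expressed, whereas Irf7 was at 0.0981 CPM per kilobase with 5 to 12 counts in any library. The effective length differs slightly between libraries and is at most 592.6 bases for the Ifitm genes, Isg15 and Bst2, so their levels per kilobase depend more on the estimated fragment length.

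**Figure D1:**
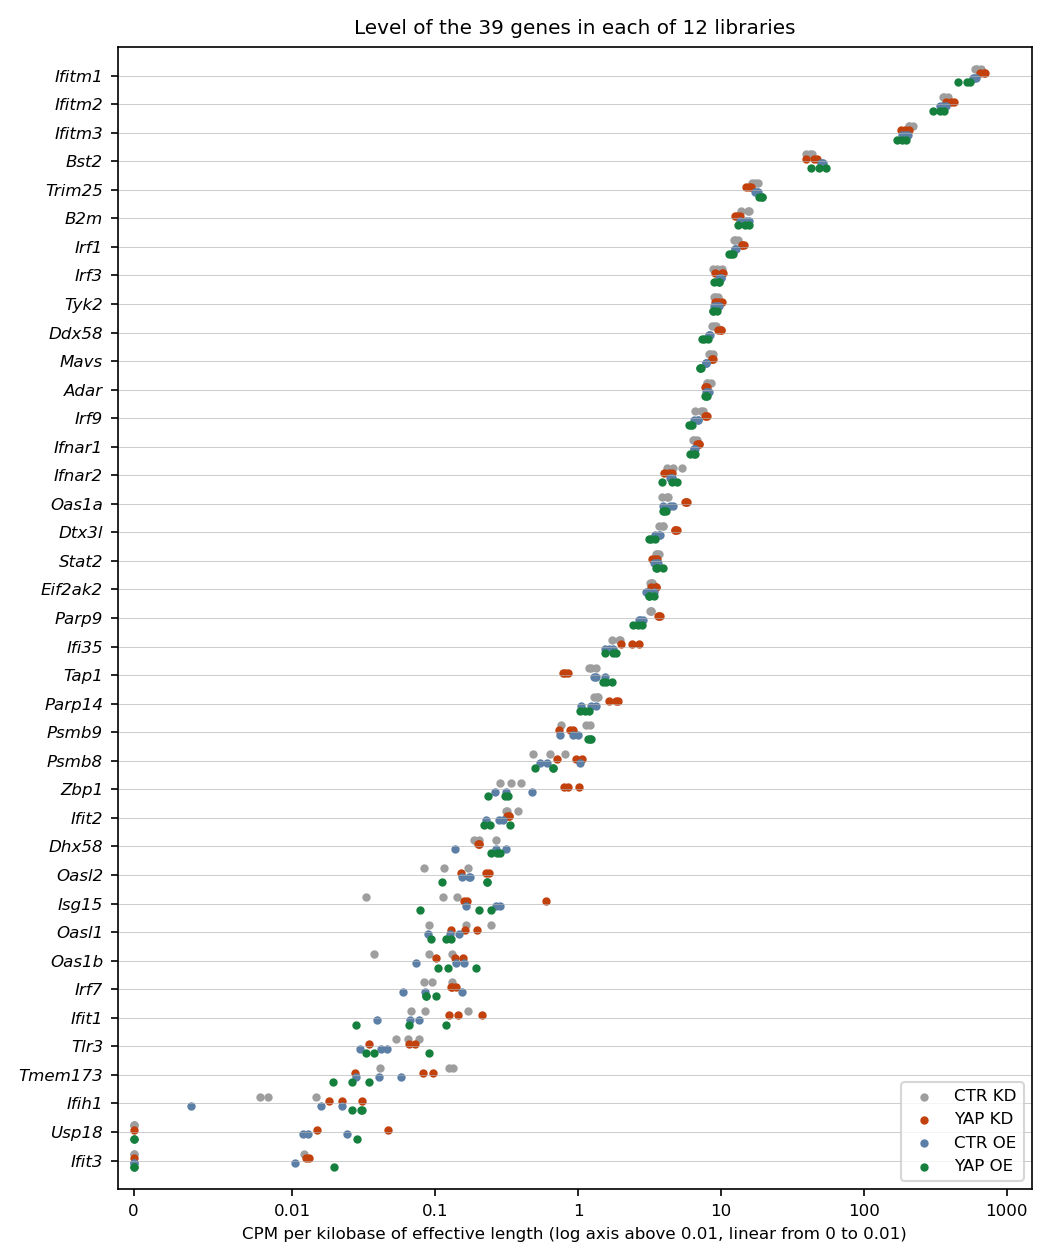
Level of each of the 39 genes, in CPM per kilobase of effective length, in each of the 12 libraries (points, coloured by group), ordered by the median over libraries; the axis is logarithmic above 0.01 and linear below it. The Ifitm genes lie at the top with medians between 194.8 and 606.6, Ddx58 and Mavs near 8, and Ifih1, Usp18 and Ifit3 at the bottom.

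Interferon genes themselves were next to absent. Of 20 type I, II and III interferon genes, 17 had 0 counts in all 12 libraries, Ifnb1 among them, which allows up to 3 counts in each. Ifnk had between 1 and 6 counts in every library, with 6, 4 and 6 in YAP KD and 2, 3 and 1 in CTR KD. Ifna13 had at most 2 counts except for 8 in YAP KD replicate 1. Ifng had 2 counts at most, in 1 library. No ligand gene had enough counts to be tested.

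The second question was how these genes respond when YAP falls. In YAP KD, 33 of the 39 genes had enough counts to be tested against CTR KD, and 5 of the 33 changed: Zbp1, Oas1a, Parp14 and Dtx3l rose and Tap1 fell. That is 15.2% of the members tested, where 5.49% of all 14606 genes tested were called (2.71% higher and 2.78% lower). That share rests on 802 genes, and 298 to 1019 genes were called with a library left out (298 without CTR KD replicate 3). The members were chosen with earlier results of these data known, so their share beside that of all genes is a description and not a test. This holds for the shares of members given below too. The changes were modest, from 1.24-fold for Dtx3l to 2.55-fold for Zbp1. At an unadjusted p under 0.05 there were 15 members, 11 higher and 4 lower. The share of all genes at this p was not computed, so nothing is read from that count. Over all 33, 21 log2FC values were positive and 12 negative, with a median of 0.0722 against 0.0058 for all genes tested. Among all genes tested 51.8% of the values were positive.

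Among the sensors, Zbp1 had the largest change. It lies on chromosome 2 of GRCm38 (173206612 to 173218959) and encodes a sensor of Z-form nucleic acid that can trigger necroptosis. Zbp1 was at 0.329, 0.377 and 0.291 CPM in CTR KD and at 0.759, 0.978 and 0.821 CPM in YAP KD, that is at 14 to 20 counts and 32 to 44 counts. All 3 YAP KD libraries were above all 3 CTR KD libraries, yet still under 1 CPM. The log2FC was 1.35 (SE 0.216, edgeR adjusted p = 0.007468915). In CTR OE it had 0.251, 0.245 and 0.493 CPM and in YAP OE 0.232, 0.297 and 0.232 CPM, so that YAP KD was above all other groups. Of the other 4 sensors and adaptors tested none was called, Ddx58 having 41.1, 44.1 and 42.8 CPM in CTR KD and 47.8, 45.4 and 47.5 CPM in YAP KD without overlap (log2FC 0.14, SE 0.0442, edgeR adjusted p = 0.109).

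Among the effectors, 3 of 17 tested rose and none fell. Oas1a encodes an oligoadenylate synthetase, which on binding double-stranded RNA makes the messenger that activates RNase L. It was at 7.22, 7.25 and 6.64 CPM in CTR KD and at 9.61, 9.58 and 9.97 CPM in YAP KD. The YAP KD libraries were above every other library of the series, since the highest of CTR OE and YAP OE was 7.86 CPM. The log2FC was 0.47 (SE 0.0668, edgeR adjusted p = 0.004564152). Its expected counts were not whole numbers in any library, since reads are shared with near-identical genes of the Oas1 family, so the level of Oas1a alone is uncertain. Oas1a and Oas1g together went from 9.82 ± 0.192 to 13.5 ± 0.951 CPM (n = 3), and with the whole Oas1 family summed the log2FC was 0.43 (edgeR adjusted p = 0.005425).

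Parp14 (35831892 to 35871518), Dtx3l (35926515 to 35939027) and Parp9 (35938470 to 35972621) lie side by side on chromosome 16 of GRCm38. Parp14 and Parp9 encode ADP-ribosyltransferase family members and Dtx3l the ubiquitin ligase that works in a complex with PARP9. Parp14 was at 9.55, 9.09 and 9.74 CPM in CTR KD and at 11.6, 13.0 and 13.5 CPM in YAP KD (log2FC 0.43, SE 0.0714, edgeR adjusted p = 0.008641273). Dtx3l was at 18.6, 19.8 and 19.6 CPM and at 23.8, 23.7 and 24.5 CPM (log2FC 0.31, SE 0.0484, edgeR adjusted p = 0.006483804). The groups did not overlap for either gene. Parp9 was at 11.0, 10.8 and 11.0 CPM in CTR KD and at 12.6, 12.4 and 12.4 CPM in YAP KD, also without overlap, but was not called (log2FC 0.19, SE 0.0539, edgeR adjusted p = 0.0746). Dtx3l and Parp9 start head to head and overlap by 558 bases, and neither had whole expected counts in any library. Summed, they had 30.3 ± 0.598 CPM in CTR KD against 36.5 ± 0.417 CPM in YAP KD (n = 3), a log2FC of 0.27 (edgeR adjusted p = 0.005985).

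None of the other effectors tested was called, and the less abundant of them had large errors. Oasl2, an OAS-like protein, had a log2FC of 0.72 (SE 0.300, edgeR adjusted p = 0.215) at 12 to 31 counts per library, and Ifi35 one of 0.32 (SE 0.128, adjusted p = 0.197). The abundant Ifitm1 was at 327.7, 344.0 and 319.2 CPM in CTR KD and at 362.7, 359.1 and 345.1 CPM in YAP KD, and Ifitm3 at 98.1, 103.6 and 98.8 CPM and at 96.0, 90.4 and 87.3 CPM. Neither gene overlapped between the groups, Ifitm1 lying higher and Ifitm3 lower in YAP KD, and neither was called (adjusted p = 0.191 and 0.141). Trim25 was at 89.3, 97.8 and 92.4 CPM in CTR KD and at 87.2, 80.4 and 84.1 CPM in YAP KD (log2FC -0.15, SE 0.0481, adjusted p = 0.116). Eif2ak2, the RNA-activated kinase PKR, and Adar, the RNA-editing deaminase, had log2FC values of 0.07 and -0.05.

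The receptor genes, the kinase and the transcription factors had no call. Ifnar1, Ifnar2 and Tyk2 had log2FC values of 0.08, -0.13 and 0.07, with SE of 0.0412, 0.1004 and 0.0516. Of the 4 transcription factors tested, Irf1 had the smallest adjusted p. It was at 25.7, 24.1 and 24.5 CPM in CTR KD and at 27.3, 27.4 and 28.4 CPM in YAP KD, with every YAP KD library above every CTR KD library (log2FC 0.17, SE 0.0472, edgeR adjusted p = 0.0794). Irf9, the DNA-binding subunit of ISGF3, had a log2FC of 0.14 (SE 0.0604) and Stat2 one of -0.06 (SE 0.0564).

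Antigen presentation was the only role with more negative than positive values, 3 of 4. Tap1 encodes a subunit of the transporter that carries peptides into the endoplasmic reticulum for loading on MHC class I. Tap1 was at 3.42, 3.72 and 3.30 CPM in CTR KD and at 2.35, 2.18 and 2.24 CPM in YAP KD, and all 3 YAP KD libraries were below every other library of the series. The log2FC was -0.62 (SE 0.1004, edgeR adjusted p = 0.007557385), which left 64.9% of the control level. Psmb9, whose start lies 225 bases from that of Tap1 on the other strand, had a log2FC of -0.32 (SE 0.235, adjusted p = 0.525) at 23 to 38 counts per library. Psmb8, another immunoproteasome subunit, had one of 0.48 (SE 0.237, adjusted p = 0.312). B2m was at 10.5, 9.43 and 10.8 CPM in CTR KD and at 9.14, 8.69 and 8.64 CPM in YAP KD, lower in every library without being called (log2FC -0.21, SE 0.0709, adjusted p = 0.126).

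**Figure D2:**
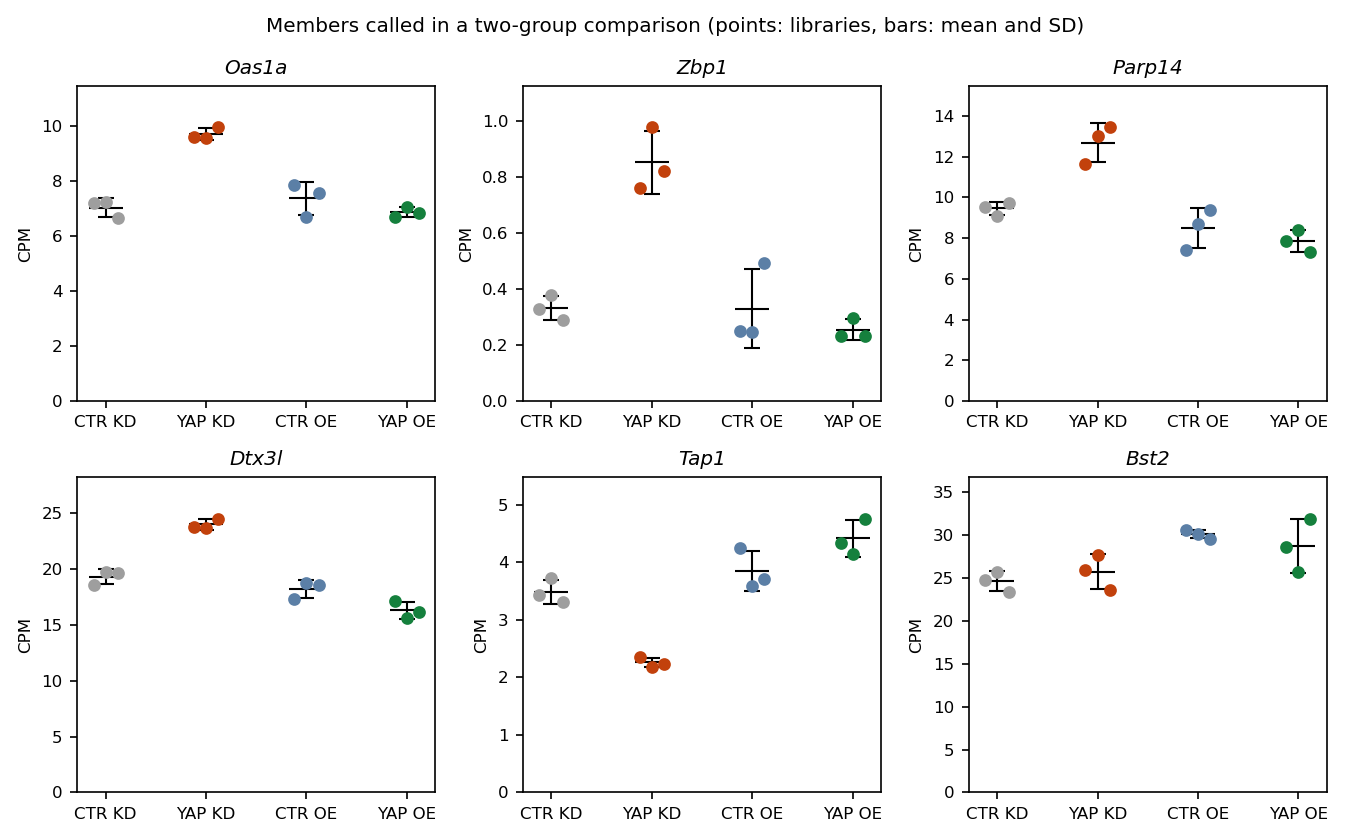
CPM of the 6 genes called in a comparison of 2 groups, by library (points), with the mean and SD of each group (bars, n = 3), on axes that start at 0. Oas1a, Zbp1, Parp14 and Dtx3l lie highest in YAP KD and Tap1 lowest, and Bst2 is higher in CTR OE (29.6 to 30.6 CPM) than in CTR KD (23.4 to 25.7 CPM).

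Counting libraries rather than fitted tests, 10 of the 33 members (30.3%) had all YAP KD libraries above all CTR KD libraries, where 12.8% of all genes tested did. These were Oas1a, Ifi35, Ifitm1, Irf1, Irf9, Ddx58, Zbp1, Parp9, Parp14 and Dtx3l. A further 5 (15.15%) had all YAP KD libraries below, where 12.9% of all genes did, namely Ifitm3, Adar, Trim25, Tap1 and B2m. Some markers of other cell types also differed between YAP KD and CTR KD. The summed level of 7 leukocyte markers was 42.8 to 49.5 CPM in CTR KD and 34.7 to 38.4 CPM in YAP KD, but 4 of them stayed under 1 CPM in all libraries, Ptprc and Itgam included. Laptm5, the leukocyte marker called lower, went from 35.5 ± 3.32 to 26.1 ± 1.56 CPM (n = 3), while Coro1a was at 3.63 ± 0.109 and 4.39 ± 0.454 CPM, higher in every YAP KD library, and Cd68 at 6.07 ± 0.234 and 6.13 ± 0.110 CPM. The sum of 6 trophoblast markers was 56.0 to 62.5 CPM in CTR KD and 76.3 to 85.8 CPM in YAP KD, with Tfap2c called higher (57.5 ± 3.27 to 79.5 ± 4.91 CPM) and Eomes at 1.34 ± 0.272 and 1.06 ± 0.284 CPM, and that of 5 endothelial markers 36.8 to 40.9 and 26.7 to 30.2 CPM, with Tek called lower and Emcn at 0. The sum of 8 fibroblast markers was 2.55 to 2.83 and 3.29 to 3.94 CPM, with 6 of them under 1 CPM in every library. That of 7 primitive endoderm markers was 6.52 to 7.49 and 7.01 to 8.64 CPM, with overlapping groups. No fibroblast or primitive endoderm marker was called. These sums do not show that cells of such types were present. Whether they were, and their part in the changes of the members, was not tested.

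The third question was how the members respond when YAP is raised. None of the 31 members tested was called in YAP OE by the edgeR quasi-likelihood test, where 2.13% of all 14804 genes tested were (1.66% higher and 0.473% lower). These are 316 genes, and 154 to 327 with a library left out (154 without CTR OE replicate 3). DESeq2 and limma-voom each called 1 member, Ifitm1, which was lower. At an unadjusted p under 0.05 there were 8 members, of which Trim25 and Psmb9 were higher and Ifitm1, Irf1, Irf9, Ddx58, Mavs and Dtx3l lower. The share of all genes at this p was not computed. For each of these 8 the YAP OE libraries did not overlap the CTR OE libraries, which makes 6.452% of the members tested non-overlapping and higher and 19.35% non-overlapping and lower, beside 10.3% and 7.9% of all genes. Over the 31 members, 9 log2FC values were positive and 22 negative, with a median of -0.0594 against -0.0025 for all genes. Among all genes tested 48.7% of the values were positive.

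Ifitm1 came nearest to the threshold. It was at 319.0, 306.0 and 308.7 CPM in CTR OE and at 273.8, 243.7 and 287.0 CPM in YAP OE, lower in every YAP OE library (log2FC -0.21, SE 0.0531, edgeR adjusted p = 0.052). Over the alternative fits its adjusted p ran from 0.00437 to 0.0612, so the call depended on the fit. Among the sensors, Mavs was at 21.3, 21.4 and 21.6 CPM in CTR OE and at 19.8, 19.6 and 19.4 CPM in YAP OE (log2FC -0.12, SE 0.0459, adjusted p = 0.225), and Ddx58 at 40.1, 39.4 and 38.96 CPM and at 36.1, 38.5 and 35.3 CPM (log2FC -0.11, SE 0.0438, adjusted p = 0.267). Both lay lower in YAP OE without overlap. Trim25 was at 97.0, 92.6 and 96.1 CPM in CTR OE and at 103.5, 104.4 and 99.9 CPM in YAP OE (log2FC 0.11, SE 0.0380, adjusted p = 0.204).

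The genes that changed in the knockdown had small values here. Dtx3l was at 17.3, 18.8 and 18.6 CPM in CTR OE and at 17.2, 15.7 and 16.2 CPM in YAP OE, lower in every library by a log2FC of -0.15 (SE 0.0556, adjusted p = 0.213). Oas1a and Parp14 had log2FC values of -0.10 (SE 0.0782) and -0.12 (SE 0.0888), and their groups overlapped. Zbp1 had one of -0.40 with an SE of 0.339 at 12 to 26 counts per library, which ran from -0.57 to 0.0157 with a library left out. Tap1 was at 4.25, 3.58 and 3.71 CPM in CTR OE and at 4.34, 4.14 and 4.76 CPM in YAP OE, with overlapping groups (log2FC 0.20, SE 0.10002, adjusted p = 0.420). Psmb9 was at 0.579, 0.634 and 0.474 CPM and at 0.736, 0.778 and 0.766 CPM (log2FC 0.44, SE 0.202, adjusted p = 0.372). Of the marker lists, Cdx2 and Gata3 of the trophoblast list, Dab2 of primitive endoderm and Tek of endothelium were called higher in YAP OE, while the sum of the 6 trophoblast markers was 52.9 to 57.2 CPM in CTR OE and 49.1 to 53.0 CPM in YAP OE. Most of that sum was Tfap2c, at 53.3 ± 2.55 and 47.7 ± 1.85 CPM. Their part in these values was not tested.

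The knockdown and overexpression share no library, so their effects were compared directly, as the effect of YAP OE minus the effect of YAP KD on the log2 scale. YAP was lowered in YAP KD and raised in YAP OE, so changes in opposite directions enlarge this difference. A call here therefore does not mean that the response to YAP was inconsistent. Of 35 members tested 10 differed (28.6%), where 8.8% of all 15049 genes tested did (5.24% with a higher and 3.56% with a lower value in overexpression). The difference was negative for 8 and positive for 2. The largest was that of Zbp1 (-1.75, SE 0.400, edgeR adjusted p = 0.0122812), followed by Tap1 (0.83, SE 0.137, adjusted p = 0.00133112), Oas1a (-0.57, SE 0.0977, adjusted p = 0.001645832), Parp14 (-0.55, SE 0.120, adjusted p = 0.009906576) and Dtx3l (-0.47, SE 0.0708, adjusted p = 0.0006655119). Ifitm1, Irf1, Irf9, Ddx58 and Trim25, none of them called within either experiment in the edgeR tests given above, also differed, with values from -0.32 for Ifitm1 to 0.26 for Trim25. Each of these last 5 genes was non-overlapping in both experiments with opposite directions, higher in YAP KD and lower in YAP OE for Ifitm1, Irf1, Irf9 and Ddx58, and the reverse for Trim25. They were picked by the difference in these same libraries, which favours separated groups with opposite directions. The share of all genes that did so was not computed, so nothing further is read from this. The Zbp1 call was lost without CTR OE replicate 3, its highest control library, at -1.33 (adjusted p = 0.0514), and that of Irf9 without any of 8 libraries taken singly.

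Of the 31 members tested in both experiments, 21 (67.74%) had log2FC values of opposite sign, where 60.86% of 14521 genes did. Of these 21 members, 16 were higher in YAP KD and lower in YAP OE and 5 the reverse. Of the 14521 genes, 4662 were higher in YAP KD and lower in YAP OE and 4175 the reverse. The other members were higher in both (4) or lower in both (6). The share of members with opposite signs, in either direction, was thus near that of all genes. The split between the directions was more uneven among the members than among all genes, and this was not tested.

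**Figure D3:**
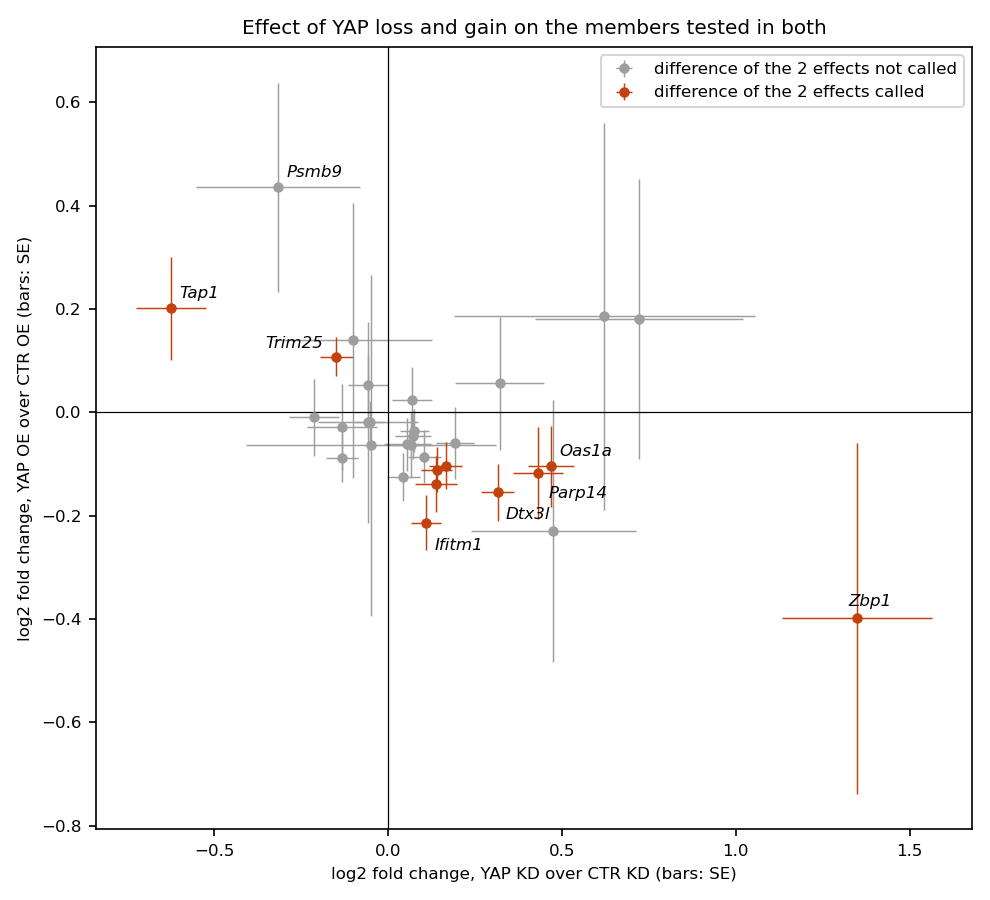
Log2 fold change of the 31 members tested in both experiments, YAP KD over CTR KD on the horizontal axis and YAP OE over CTR OE on the vertical axis, with SE as bars; red points are the members whose 2 effects differed (edgeR, adjusted p under 0.05). Zbp1, Oas1a, Parp14, Dtx3l and Ifitm1 lie at lower right, and Tap1 and Trim25 at upper left.

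The last comparison set the control groups side by side. A scrambled siRNA duplex was delivered in CTR KD and a plasmid in CTR OE, and the cargo and the experiment cannot be told apart in it. These are also the control libraries of the comparisons above, so the values below are not independent of those. Of 32 members tested, Bst2 alone was called (3.12%), where 0.733% of all 14744 genes tested were (0.454% higher and 0.278% lower in CTR OE). These are 108 genes, and 20 to 420 with a library left out (20 without CTR OE replicate 3, 420 without CTR KD replicate 2). Bst2 was at 24.8, 25.7 and 23.4 CPM in CTR KD and at 30.6, 30.2 and 29.6 CPM in CTR OE, with every CTR OE library above every CTR KD library (log2FC 0.30, SE 0.0481, edgeR adjusted p = 0.02436022). In the YAP libraries it was at 25.96, 27.7 and 23.6 CPM in YAP KD and at 28.6, 25.7 and 31.9 CPM in YAP OE. The YAP OE libraries spread to both sides of the CTR OE range, and the lowest of them was at the level of the highest CTR KD library. The call was lost without CTR KD replicate 3 and without any of the 3 CTR OE libraries, with adjusted p up to 0.172.

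No other member was called. Of the 32, 10 log2FC values were positive and 22 negative (median -0.0311, against 0.0061 for all genes), where 52.7% of all genes tested had positive values. At an unadjusted p under 0.05 there were 5 members, with Bst2 the only one higher in CTR OE. The share of all genes at this p was not computed. Besides Bst2 (3.125%, where 7.64% of all genes did so), no member tested had all CTR OE libraries above all CTR KD libraries, and 7 (21.88%, where 8.78% of all genes did so) had all of them below. These were Ifit2, Ifitm1, Ifitm3, Ddx58, Mavs, Tlr3 and Parp9. Parp9 was at 11.0, 10.8 and 11.0 CPM in CTR KD and at 8.996, 9.15 and 9.61 CPM in CTR OE (log2FC -0.23, SE 0.0576, edgeR adjusted p = 0.137). Tlr3, the endosomal sensor of double-stranded RNA, had 10, 17 and 13 counts in CTR KD and 9, 6 and 10 in CTR OE (log2FC -0.73, SE 0.312, adjusted p = 0.461). Of the genes with too few counts to be tested here, Isg15 had 1 to 4 counts in CTR KD and 5 to 8 in CTR OE. Usp18 had 0 counts in CTR KD and 1 or 2 in CTR OE. At so few counts a gap between groups is not read as a difference. Ifit1 had 8 to 19 and 5 to 10 counts.

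**Figure D4:**
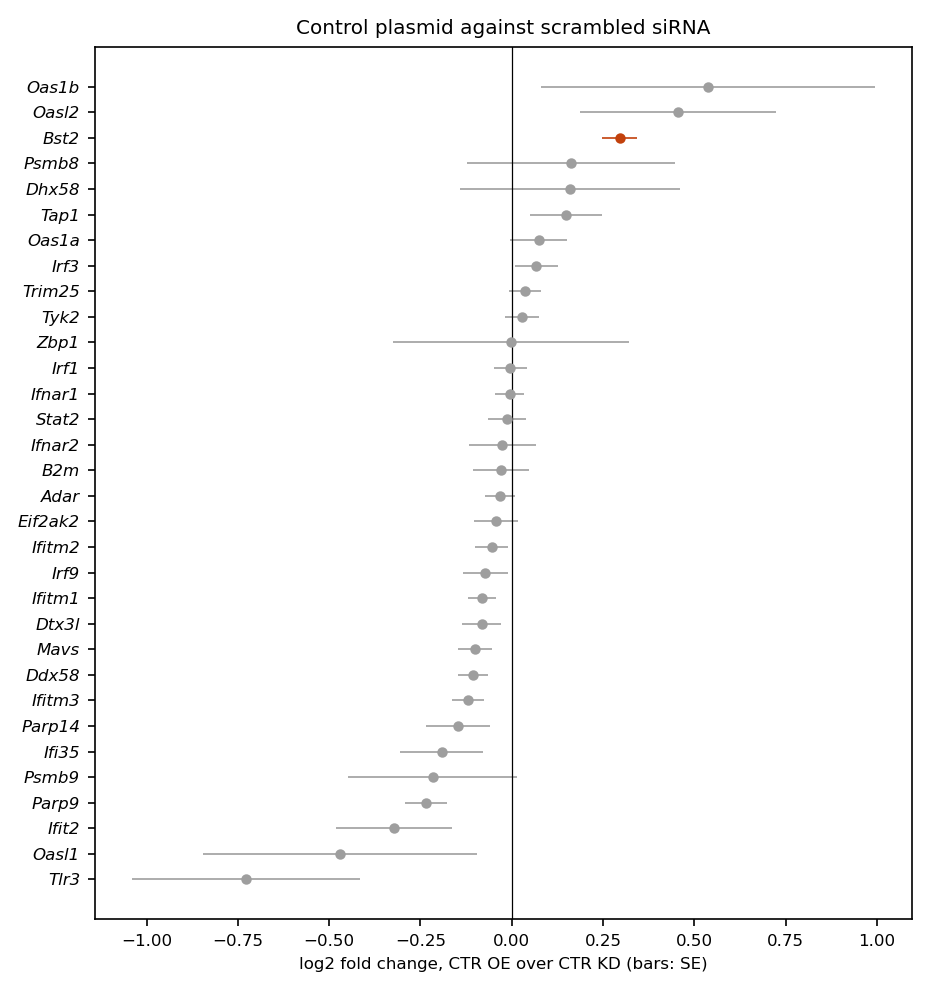
Log2 fold change of CTR OE over CTR KD with its SE (bars) for the 32 members tested, in order of size. Bst2 (0.30, red) is the only member called, and the wide bars at both ends belong to genes with few counts such as Oas1b, Oasl1 and Tlr3.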

How the data were processed

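Total RNA of 12 libraries (3 per group) was sequenced on an Illumina platform. The authors mapped reads with STAR to mm10 and quantified curated RefSeq genes with RSEM; versions and strand setting are not given in the sources used here. The deposited tables hold RSEM expected counts, which split reads shared by several genes and so need not be whole, the effective length in bases, and TPM and FPKM values scaled by the authors, which were not used for any result. Expected counts (called whole within 0.005) were rounded. Each comparison was fitted with edgeR 4.0.16 (R 4.3.3; filterByExpr, TMM, quasi-likelihood F test, two-sided) on the 6 libraries concerned, and the difference of effects on all 12, with Benjamini-Hochberg adjustment over all genes tested. Genes with adjusted p under 0.05 were called. Near silent means under 1 CPM in every library, and at the floor at most 3 counts. CPM values share 1 TMM scaling over the 12 libraries. Intervals of counting error are not given, and libraries of the same group varied beyond counting noise (chi-square over degrees of freedom from 3.499 to 25.4). DESeq2 1.42.0 and limma 3.58.1 (voom), other scalings and filters, 1 fit over all libraries, a replicate block and left-out libraries were alternatives. The scripts were tested on simulated data. Values per library are printed for members called between 2 groups and for members that represent their role, and the others are given by range. The members and lists were chosen with earlier results of these data known. Motifs were searched on both strands of RefSeq promoters (GRCm38.p6, the mm10 primary assembly).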

Additional observations from a re-analysis of the deposited data

Results flagged for a closer look

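Of the values reported, 10 met a rule for a closer look. In each the change from control differed between YAP OE and YAP KD in the edgeR test of the difference itself (YAP OE effect minus YAP KD effect, log2, 12 libraries). YAP was lowered in YAP KD and raised in YAP OE, so mirrored changes enlarge this difference. All 10 genes had log2FC values of opposite sign in the knockdown and the overexpression. The rule itself favours opposite signs, and their share among all genes called for this difference was not computed. Nothing is therefore read from that count. The value was -0.57 for Oas1a, -0.32 for Ifitm1, -0.27 for Irf1, -0.28 for Irf9, -0.25 for Ddx58, -1.75 for Zbp1, -0.55 for Parp14, -0.47 for Dtx3l, 0.26 for Trim25 and 0.83 for Tap1. The adjusted p was lowest for Dtx3l (0.0006655119) and highest for Irf9 (0.03472483). Zbp1 rests on 12 to 44 counts per library, and Oas1a and Dtx3l share reads with other genes. Expected counts of Ifitm1 were also not whole in 6 libraries.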

How the results depend on the processing

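The 5 members changed in YAP KD were called under relative log expression, total-count and upper-quartile scaling, without a filter, with limma-voom and in all 6 fits that left out a library, where 5 to 7 members were called. Zbp1 was too low to be tested under a filter of 1 CPM in 3 libraries and by DESeq2, which each called the other 4. A fit over all 12 libraries called 8 members and 1261 genes in place of 802, and left-out libraries gave 298 to 1019 genes (lowest without CTR KD replicate 3). In YAP OE, where no member was called, 1 member (Ifitm1, lower) was called under relative log expression factors, without a filter, by DESeq2, by limma-voom and with the replicate block, and 0 to 1 with a library left out (Ifitm1 without YAP OE replicate 3). Over all genes 556 were called in YAP OE without a filter, in place of 316, and 154 to 327 with a library left out (lowest without CTR OE replicate 3). Between the controls (108 genes, 1 member), DESeq2 called 170 genes and the fit over all libraries 200 genes and 0 members, and left-out libraries gave 20 to 420 genes and 0 to 1 members (lowest without CTR OE replicate 3, highest without CTR KD replicate 2). For the difference of effects the left-out fits gave 943 to 1490 genes in place of 1325 and 9 to 11 members. With 0.5 CPM as the limit, 9 members (23.08%, against 42.55% of all genes) were near silent in place of 14. The cause of these shifts was not tested.

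Replicate numbers are shared by the groups, but same-numbered libraries showed no clear common deviation. Correlations were -0.394 to 0.0313 in the knockdown, -0.0257 to 0.0754 in the overexpression and -0.265 to -0.0705 between the controls. In no comparison did every library correlate best with its own number, although replicate 2 of YAP OE and of CTR OE did so. With 3 libraries per group these correlations cannot exclude that the numbers pair the samples, and the study names paired samples for its t tests. The main fits were unpaired. With the replicate block, which leaves fewer degrees of freedom, 194 genes and 2 members (Oas1a and Zbp1) were called in YAP KD, 40 genes and 0 members between the controls, and 773 genes and 6 members for the difference of effects. None of the values called in the report changed sign in these alternatives. Uncalled values near 0 or with few counts did, such as Oasl1 in YAP KD (-0.33 to 0.32 with a library left out) and Bst2 in YAP OE (-0.15 to 0.0076). Depth limits the near-silent genes, where a few counts per library cannot show a moderate change.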

Other observations

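Further genes of the same pathway, listed by their function, are given by counts, beside shares of 5.49% of all genes called in YAP KD, 2.13% in YAP OE and 0.733% between the controls, and nothing particular to these lists is read from them. Of 24 other interferon-stimulated genes tested in each experiment, Samd9l was the only one called, in both. Samd9l, the gene of an antiviral restriction factor, was at 4.54, 3.42 and 4.57 CPM in CTR KD and at 6.19, 7.01 and 7.78 CPM in YAP KD (log2FC 0.76, SE 0.128, edgeR adjusted p = 0.009128627). It was at 4.56, 4.97 and 4.74 CPM in CTR OE and at 3.58, 3.41 and 3.24 CPM in YAP OE (log2FC -0.48, SE 0.0928, edgeR adjusted p = 0.01156628). Its libraries did not overlap in either experiment, higher in YAP KD and lower in YAP OE. The median log2FC of this list was 0.2128 in YAP KD and -0.0017 in YAP OE, and 27 of its 41 genes stayed under 1 CPM in every library, Mx1, Rsad2 and Cmpk2 included. Between the controls Gbp2, a guanylate-binding protein gene, was the only one called, at 4.87 ± 0.455 CPM in CTR KD and 7.45 ± 0.614 CPM in CTR OE (n = 3, log2FC 0.62, SE 0.0920, edgeR adjusted p = 0.01742403).

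Among 14 further antigen presentation genes tested in YAP KD, Psme2, a subunit of the proteasome activator, rose from 16.2 ± 0.694 to 20.3 ± 0.792 CPM (log2FC 0.33, SE 0.0547, edgeR adjusted p = 0.008759504), and H2-K1, an MHC class I heavy chain, fell from 12.5 ± 0.269 to 10.02 ± 0.131 CPM (log2FC -0.32, SE 0.0559, edgeR adjusted p = 0.01151259). H2 genes are highly similar in sequence, so the split of reads between them is uncertain. No gene of this list was called in YAP OE or between the controls. None of 18 genes of receptors, JAK, STAT and their regulators was called in any comparison of 2 groups. Of 22 further sensors and adaptors, Rnaseh2c, a subunit of RNase H2, was called in YAP OE (log2FC -0.29, SE 0.0589, edgeR adjusted p = 0.01524223) and none in the other 2 comparisons. The cGAS gene, Mb21d1, stayed under 1 CPM in every library. None of 6 tested targets of NF-kB was called, and Cxcl10, Ccl5, Il6 and Tnf were under 1 CPM in every library.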
